A study of Mus musculus with 6 samples.

Results

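Secreted signals of the bone morphogenetic protein (BMP) and Wnt pathways were measured in the stromal cells of regenerating mouse tibialis anterior muscle (TAM). The 8 genes described were chosen by name from the 12436 genes listed in each file: *Gdf10*, *Bmp4*, *Bmp5*, *Fst*, *Wnt2*, *Wnt5a*, *Sfrp2*, and *Ccn4*. All 8 were present in all 6 libraries. Their measured values played no part in the rule that chose them, although earlier results of these data were known when it was written.

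TAM came from male mice of 3 to 5 months on a B6;129 background with a Fucci2aR allele at Gt(ROSA)26Sor, a cell cycle reporter that control and hypothyroid animals shared, and the animals carried no Cre per the study's methods. Hypothyroid mice ate an iodine-deficient diet with 0.15% propylthiouracil, a drug that blocks thyroid hormone synthesis, and control mice ate a matched diet. Muscle was taken uninjured (day 0) or at 5 or 14 days after injury (dpi) by an injection of cardiotoxin at 50 µg/ml, a snake venom toxin that kills myofibers. Messenger RNA of single cells, caught in droplets, was counted as unique molecular identifiers (UMIs), and 3 mice were pooled into the 1 library that stands for each diet on each day, 6 libraries in all. Differences between diets or days therefore compare single libraries, have no replicate check, and were not tested, and all intervals below cover counting error only.

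The files mix cells of several samples. Each holds several runs of alphabetically ordered barcodes, and 1680 cells with the same values stand in 2 files of different conditions. The analysis kept the first run alone, 11207 of 20269 cell columns, with 528 to 3294 cells and 2283739 to 23496489 UMIs per library. Of these first-run cells, 528 of the 2428 in the control library at 5 dpi also stand in the hypothyroid file of day 0. In the hypothyroid library at 14 dpi, 1152 of the 1650 cells also stand in the control file of day 0. Both sets of cells thus stand under the other diet as well. Member levels in FAP-like cells, and most diet ratios, day calls, and subtype differences, are also given without them below. The subtype, cluster, and class levels keep them unless stated. So do the subtype shares, the thinned shares, the pathway levels and injury counts, and the patterns of likeness. Whether a first run belongs to the condition on its label could not be checked from the files. Between the first runs themselves 12 barcodes were shared, with different values.

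BMPs are secreted ligands of the transforming growth factor β superfamily. They bind paired type I and type II receptors, act through SMAD proteins, and raise targets such as the *Id* genes, while secreted inhibitors such as follistatin and gremlins trap ligands outside the cell. Wnt proteins bind Frizzled receptors and co-receptors and act through β-catenin or through other routes, and are held back by secreted Frizzled-related proteins. In skeletal muscle the fibro-adipogenic progenitors (FAPs), mesenchymal cells that can give rise to fibroblasts and adipocytes, are a known source of such signals for muscle stem cells. FAPs fall into a *Pi16*-positive type, thought to be a more uncommitted reserve, and a *Smoc2*-positive type, which carries more basement membrane genes.

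Clustering gave 8 clusters that were called FAP-like because markers such as *Pdgfra* and *Dcn* were raised in them. They held 750, 299, 404, 832, 1511, and 857 cells in the control and hypothyroid libraries of day 0, 5, and 14 in turn, 4653 in all. All 8 FAP markers were detected, and their summed level was between 27750 and 49660 CPM (UMIs scaled to a common total for each pool of cells) in each library. The clusters were named by these same markers, so this level is no independent check of the label. Markers of T or NK cells summed to at most 22.4 CPM there, and those of monocytes or macrophages to at most 35.8. Markers of other types summed to more: the endothelial markers to 374 to 799 CPM, the tenocyte markers to 64.8 to 1833, the myocyte markers to 193 to 7536, and the erythroid markers to 1.22 to 1244. The tenocyte marker *Thbs4* was also among the top genes of FAP-like cluster 6. How much of each sum came from the FAP-like cells themselves was not tested. Depth was uneven, with a median of 12663.5 and 13966.5 UMIs per FAP-like cell at 5 dpi and of 4242 to 9419 in the other libraries.

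The members sit on 6 chromosomes of the mm39 build (GRCm39), and all are protein-coding genes. *Gdf10* (chr14:33645544-33659941), *Bmp4* (chr14:46620977-46628127), and *Wnt5a* (chr14:28226707-28249406) share chromosome 14. *Bmp5* lies at chr9:75682646-75807593, *Fst* at chr13:114588826-114595488, and *Wnt2* at chr6:17988939-18030585. *Sfrp2* lies at chr3:83673628-83681624 and *Ccn4* at chr15:66763169-66795051.

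Promoter sequences are shown for *Gdf10* and *Sfrp2*, which were called lower in the hypothyroid library on at least 2 of the 3 days, as was *Wnt5a*. Each is the 250 bases before the gene's start, read on the gene's strand from RefSeq and placed on GRCm39 by exact match, at chr14:33645294-33645543 (plus strand) for *Gdf10* and chr3:83673378-83673627 (plus strand) for *Sfrp2*. Capitals mark matches to 3 short motifs, searched on both strands and chosen after the sequences had been seen. AGGTCA is a half-site of the thyroid hormone receptor. GGGCGG is a GC box, read as CCGCCC on the other strand. ATTTGCAT is an octamer motif.
Gdf10: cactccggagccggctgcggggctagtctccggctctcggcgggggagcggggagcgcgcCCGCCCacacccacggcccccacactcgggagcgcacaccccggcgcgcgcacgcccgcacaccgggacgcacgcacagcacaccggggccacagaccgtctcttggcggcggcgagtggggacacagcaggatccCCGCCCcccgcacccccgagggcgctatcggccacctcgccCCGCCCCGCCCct
Sfrp2: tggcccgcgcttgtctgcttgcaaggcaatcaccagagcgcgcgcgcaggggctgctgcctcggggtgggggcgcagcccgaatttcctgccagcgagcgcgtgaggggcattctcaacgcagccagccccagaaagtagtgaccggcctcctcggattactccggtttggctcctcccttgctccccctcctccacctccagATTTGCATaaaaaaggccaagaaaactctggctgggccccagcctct
The *Gdf10* window holds 4 GC boxes, the last 2 of which overlap by a base, and the *Sfrp2* window holds 1 octamer. Of 32851 mouse promoter windows of this length, 32.7% hold a GC box and 1.6% the octamer. The half-site AGGTCA stands in 14.0% of windows and in none of the 5 members matched in the RefSeq table (*Gdf10*, *Bmp4*, *Bmp5*, *Wnt2*, and *Sfrp2*). These matches describe letters only, and they were not tested against the levels.

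The first question was how high each signal stood in FAP-like cells of each library. Values are UMIs summed over the FAP-like cells of a library and scaled to CPM, with the exact 95% Poisson interval in parentheses. They are read within a gene, from library to library, and not between genes.

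Among the BMP-related ligands, *Gdf10* (also called Bmp3b), a divergent BMP family member, stood at 21.8 CPM (17.7 to 26.6) in uninjured control muscle, 9.04 (6.75 to 11.9) at 5 dpi, and 39.6 (35.6 to 44.0) at 14 dpi. The hypothyroid libraries held 8.16 (4.22 to 14.3, from 12 UMIs), 3.09 (2.19 to 4.24), and 7.41 (5.66 to 9.54). At each day the control interval lay above the hypothyroid one, and the control library at 14 dpi was the highest of all 6.

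*Bmp4*, a classical BMP ligand, was at 42.5 CPM in control and 70.0 in hypothyroid muscle on day 0. After injury it was lower in all 4 libraries, at 7.30 and 7.48 at 5 dpi and 15.5 and 13.2 at 14 dpi. *Bmp5*, a ligand of the same family, stood at 103.8 CPM in control and 167.9 in hypothyroid muscle on day 0, 26.4 and 51.8 at 5 dpi, and 43.4 and 53.2 at 14 dpi. Both ligands were highest in the uninjured hypothyroid library, and both stood below their day 0 level at 14 dpi under each diet.

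*Fst* encodes follistatin, a secreted protein that traps activins, myostatin, and some BMPs. It was at 342 CPM in control and 313 in hypothyroid muscle on day 0, 174 and 279 at 5 dpi, and 366 and 431 at 14 dpi. The control library at 5 dpi was the lowest of the 6 and the hypothyroid library at 14 dpi the highest.

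Of the Wnt ligands, *Wnt2*, which can act through β-catenin, was at 33.4, 31.8, and 86.0 CPM in the control libraries of day 0, 5, and 14. The hypothyroid libraries held 29.9, 29.1, and 71.4 CPM. *Wnt5a*, the best known ligand of the β-catenin-independent routes, was at 16.1, 22.6, and 28.9 CPM in control and 11.6, 10.9, and 11.7 in hypothyroid muscle. *Wnt2* thus stood apart at 14 dpi under both diets, whereas the *Wnt5a* levels of the 3 hypothyroid libraries lay within each other's intervals.

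*Sfrp2* encodes a secreted Frizzled-related protein, which binds Wnts outside the cell. Its level was 16.6 CPM in control and 5.44 (from 8 UMIs) in hypothyroid muscle on day 0, 209.9 and 147.2 at 5 dpi, and 48.6 and 7.78 at 14 dpi. *Ccn4* (also called Wisp1), a matricellular protein known as a Wnt and β-catenin target, was at 6.13 and 8.84 CPM on day 0, 161.2 and 120.5 at 5 dpi, and 23.0 and 55.8 at 14 dpi. Both were highest at 5 dpi under each diet, and at 14 dpi they lay on opposite sides between the diets. In all, 4 of the 8 members (*Bmp5*, *Fst*, *Wnt2*, and *Wnt5a*) were at 10 CPM or more in every library. Without the cells that stand in 2 files, the control library at 5 dpi kept 326 FAP-like cells and the hypothyroid library at 14 dpi 258. *Gdf10* was then at 9.26 and 6.90 CPM in this pair, *Bmp4* at 7.33 and 16.6, *Bmp5* at 27.2 and 38.6, *Fst* at 185.5 and 401, *Wnt2* at 31.02 and 69.4, *Wnt5a* at 18.5 and 10.2, *Sfrp2* at 216 and 9.74, and *Ccn4* at 161.4 and 49.5. *Bmp5* in the hypothyroid libraries was then lowest at 14 dpi rather than at 5 dpi.

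**Figure D1:**
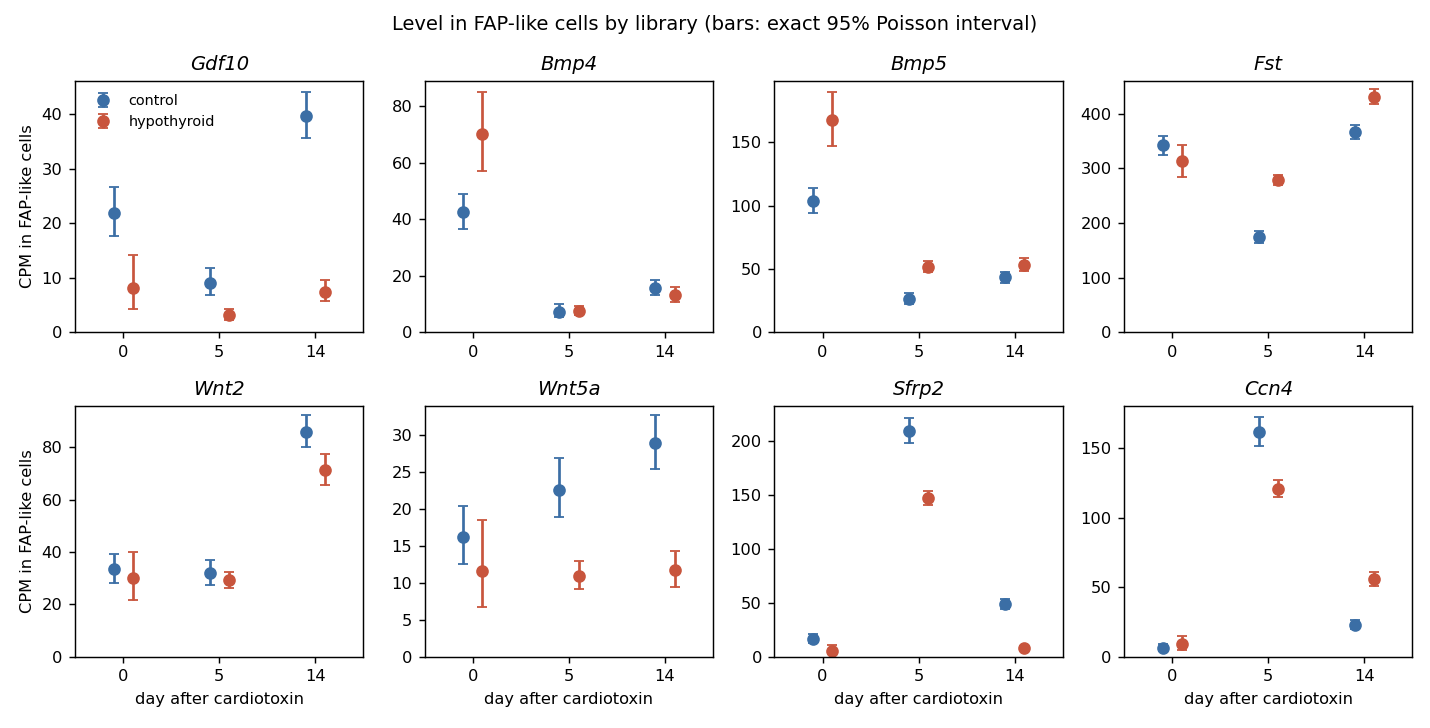
Level of each member in FAP-like cells (CPM, linear axis from 0) against the day after cardiotoxin, with 1 point per library and bars for the exact 95% Poisson interval. *Gdf10* stands at 39.6 CPM in the control and 7.41 CPM in the hypothyroid library at day 14, and *Sfrp2* and *Ccn4* are highest at day 5 under both diets.

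The plot of levels by day shows 2 shapes: *Sfrp2* and *Ccn4* were highest at 5 dpi, whereas *Gdf10*, *Bmp4*, and *Bmp5* were lowest there under each diet, although *Bmp5* in the hypothyroid libraries was within counting error at 5 and 14 dpi (51.8 and 53.2 CPM). The share of FAP-like cells with a *Gdf10* UMI was 6.67%, 6.68%, and 11.6% in the control libraries and 2.68%, 3.37%, and 5.13% in the hypothyroid ones. The share was 6.44% in control at 5 dpi and 5.04% in hypothyroid muscle at 14 dpi without the cells in 2 files. With each cell thinned to 1000 UMIs, which left out 5 to 63 shallower cells per library, the shares were 2.74%, 1.5%, and 3.87% in control and 0 of 292 cells (which allows up to 1.03%), 0.124%, and 0.954% in hypothyroid muscle. T or NK-like cells, which should lack the gene, held a *Gdf10* UMI in 0 of 1029 cells of the control library at 5 dpi (which allows up to 0.292%), with a median of 2525 UMIs per cell against 12663.5 in FAP-like cells. *Ccn4* was found in 51.0% and 50.1% of FAP-like cells at 5 dpi, 14.0% and 7.46% after thinning, against 0.680% of those T or NK-like cells, or 0.404% after thinning.

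Comparing the diets within each day asks how the signals of hypothyroid muscle differed from those of control muscle. *Gdf10* was lower in the hypothyroid library on all 3 days, and *Sfrp2* was lower on day 0 and at 14 dpi. The *Gdf10* ratio was furthest from 1 at 14 dpi, but its counting interval overlapped those of the other days. A difference in this ratio between days was not tested. *Wnt5a* was lower at 5 and 14 dpi, and *Ccn4* was higher at 14 dpi. A gene was called when the hypothyroid over control ratio of CPM was at least 2-fold with a 95% counting interval apart from 1, among genes with at least 20 UMIs in both pools together.

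On day 0, 2 of the 8 members were called and both were lower, where 5.81% of 10010 genes were called in either direction, 3.3% higher and 2.52% lower. The *Gdf10* ratio was 0.374 (0.187 to 0.684) and the *Sfrp2* ratio was 0.328 (0.136 to 0.681), both resting on 12 UMIs or fewer in the hypothyroid pool. *Bmp4* at 1.65 (1.28 to 2.11) and *Bmp5* at 1.62 (1.38 to 1.89) had intervals above 1 but stayed under 2-fold. Of the 73 *Sfrp2* UMIs in the control pool, 42 came from 21 cells with a *Pi16* UMI, 14 from 2 cells with *Smoc2* alone, and 17 from 2 cells with neither gene. The ratios of *Fst* (0.914), *Wnt2* (0.896), *Wnt5a* (0.716), and *Ccn4* (1.44) were not called.

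At 5 dpi, 2 members were called and both were lower, where 12.7% of 11460 genes were called, 2.92% higher and 9.73% lower. The *Gdf10* ratio was 0.342 (0.219 to 0.529) and the *Wnt5a* ratio was 0.482 (0.376 to 0.618). The median gene was itself lower, by 0.33 on the log2 scale, and relative to it *Gdf10* stood at −1.22 and *Wnt5a* at −0.72. *Bmp5*, at a ratio of 1.96 (1.64 to 2.36), and *Fst*, at 1.60 (1.49 to 1.72), lay in the other direction and stood 1.3 and 1.01 log2 units above the median gene. *Sfrp2* at 0.701 and *Ccn4* at 0.748 stood at −0.18 and −0.09 relative to it. Without the 528 cells held in another file, the *Gdf10* ratio was 0.334, and *Wnt5a* was no longer called at 0.588. The *Wnt5a* call at 5 dpi held in 2 of 8 alternatives, which ran from 0.334 to 0.897.

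At 14 dpi, 4 members were called, 3 lower and 1 higher, where 7.31% of 11172 genes were called, 5.73% lower and 1.58% higher. The *Gdf10* ratio was 0.187 (0.140 to 0.246), the *Sfrp2* ratio 0.160 (0.121 to 0.209), and the *Wnt5a* ratio 0.406 (0.318 to 0.516). *Ccn4* had a ratio of 2.43 (2.05 to 2.88). *Bmp4* (0.852), *Bmp5* (1.23), *Fst* (1.18), and *Wnt2* (0.830) lay near 1. Without the 1152 cells held in another file, which left 258 FAP-like cells in the hypothyroid pool, the same 4 genes were called, at 0.174 for *Gdf10*, 0.351 for *Wnt5a*, 0.2005 for *Sfrp2*, and 2.15 for *Ccn4*. Over 7 alternatives each, *Gdf10* and *Sfrp2* were called in 7 and *Wnt5a* and *Ccn4* in 5.

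Markers of other cell types also differed between these pools. The 7 tenocyte markers summed to 328 CPM in the control and 998 CPM in the hypothyroid FAP-like pool at 14 dpi, the day on which *Ccn4* was higher, and their part in that result was not tested. The 8 myocyte markers summed to 6654 and 1762 CPM there and to 2104 and 7536 CPM on day 0, and the 4 erythroid markers to 1244 and 11.4 CPM at 14 dpi. The part of these sums in the member ratios was not tested.

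**Figure D2:**
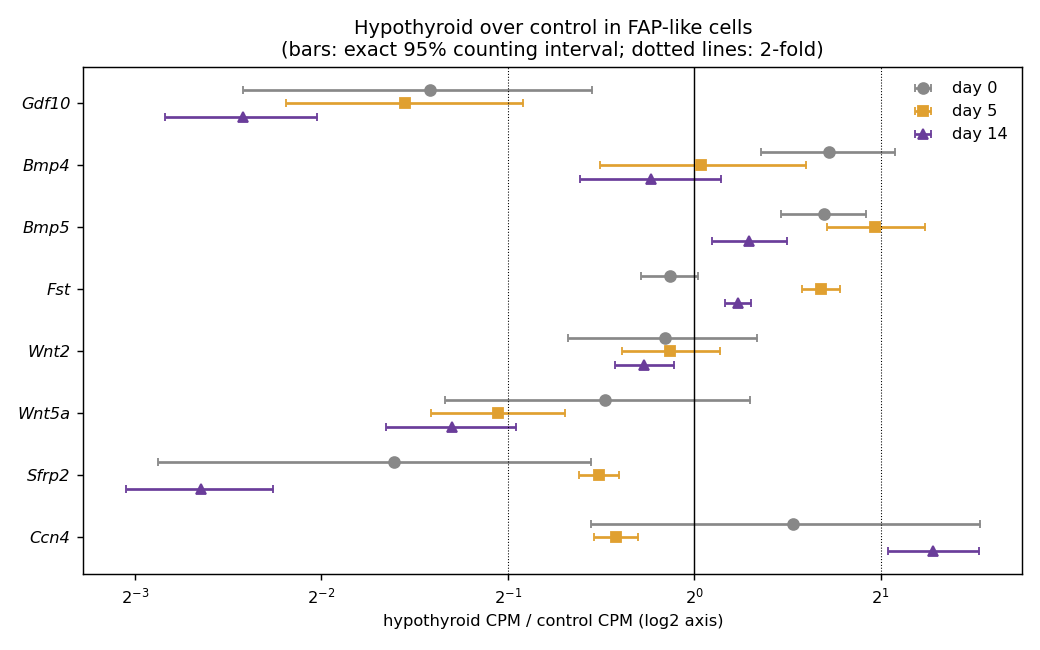
Hypothyroid over control ratio of CPM in FAP-like cells for each member and day (log2 axis), with the exact 95% counting interval, a solid line at 1, and dotted lines at 2-fold. All 3 *Gdf10* points lie left of the lower dotted line, from 0.374 on day 0 to 0.187 on day 14, and only *Ccn4* on day 14 lies right of the upper one.

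The plot of ratios also shows which members differed in direction between days. *Ccn4* was below 1 at 5 dpi and above it at 14 dpi, and *Bmp5* was above 1 on all 3 days, with an interval apart from 1 on day 0 and at 5 and 14 dpi. *Bmp4* (1.65, 1.02, and 0.852) and *Fst* (0.914, 1.60, and 1.18) also lay on both sides of 1, with intervals that held 1 for *Bmp4* at 5 and 14 dpi and for *Fst* on day 0. The direction of *Bmp5* and *Bmp4* at 14 dpi depended on the cells in 2 files. Without them the *Bmp5* ratio on that day was 0.889 (0.702 to 1.115) and the *Bmp4* ratio 1.07 (0.737 to 1.53), both with intervals that held 1.

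The injury course within each diet was compared next. Under both diets *Sfrp2* and *Ccn4* were far higher at 5 dpi than on day 0, while *Gdf10*, *Bmp4*, and *Bmp5* were lower. The libraries at 5 dpi supply both of these comparisons and the next, so the ratios are not independent of each other.

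From day 0 to 5 dpi in control muscle, 5 members were called, 2 higher and 3 lower, where 32.2% of 11151 genes were called, 20.2% higher and 12.0% lower. The ratio was 26.3 (18.0 to 40.1) for *Ccn4* and 12.7 (9.99 to 16.3) for *Sfrp2*, against 0.415 for *Gdf10*, 0.172 for *Bmp4*, and 0.255 for *Bmp5*. In hypothyroid muscle the same 5 genes were called the same way, where 34.8% of 11301 genes were called, 14.3% higher and 20.5% lower. Their ratios there were 13.6 (7.95 to 25.7) for *Ccn4*, 27.1 (13.7 to 62.8) for *Sfrp2*, 0.379 for *Gdf10*, 0.107 for *Bmp4*, and 0.309 for *Bmp5*. *Wnt2* was close to level under both diets, at 0.953 and 0.974. The *Ccn4* and *Sfrp2* ratios of the 2 diets were not compared by a test. The summed tenocyte markers of these pools moved with them, from 64.8 to 1537 CPM in control and from 93.1 to 1833 CPM in hypothyroid muscle, and their part in these ratios was not tested.

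From 5 to 14 dpi in control muscle 6 members were called, where 25.8% of 11419 genes were called, 8.96% higher and 16.9% lower. *Gdf10* was higher at a ratio of 4.38 (3.27 to 5.99), as were *Bmp4* at 2.12, *Fst* at 2.10, and *Wnt2* at 2.70, while *Sfrp2* at 0.232 and *Ccn4* at 0.143 were lower. In hypothyroid muscle 4 were called, where 27.1% of 11502 genes were called, 11.8% higher and 15.3% lower: *Gdf10* at 2.40 (1.57 to 3.70) and *Wnt2* at 2.45 higher, *Sfrp2* at 0.0529 and *Ccn4* at 0.463 lower. When the cells in 2 files were left out, *Fst* in control muscle was no longer called (1.97) and *Bmp4* in hypothyroid muscle was called higher (2.22), while the other members kept their call or lack of one.

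Comparing 14 dpi with day 0 shows how far the levels had come back. In control muscle 5 members were called, where 11.7% of 11051 genes were called, 6.6% higher and 5.09% lower: *Bmp4* at 0.365 and *Bmp5* at 0.418 were lower, and *Wnt2* at 2.57, *Sfrp2* at 2.93, and *Ccn4* at 3.75 were higher. In hypothyroid muscle 4 were called, where 24.1% of 10573 genes were called, 8.54% higher and 15.6% lower: *Bmp4* at 0.189 and *Bmp5* at 0.317 were lower, and *Wnt2* at 2.39 and *Ccn4* at 6.32 were higher. *Sfrp2*, at 1.43 (0.684 to 3.46), was not called there, and *Gdf10* stood at 1.82 (1.45 to 2.30) in control and 0.908 (0.484 to 1.86) in hypothyroid muscle. The same members were called without the cells in 2 files from day 0 to 5 dpi in control and from day 0 to 14 dpi in hypothyroid muscle.

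The stromal subtypes were then compared within each library. FAP-like cells with a UMI of *Pi16* were called Pi16+, and those with a UMI of *Smoc2* but none of *Pi16* were called Smoc2+. Pi16+ cells made up 46.5%, 43.8%, and 69.3% of FAP-like cells in the control libraries and 47.5%, 40.0%, and 71.9% in the hypothyroid ones. They included 80 to 521 cells per library with UMIs of both genes. The gate was checked on genes it did not use. In uninjured control muscle *Dpp4* and *Sema3c*, known for the Pi16+ type, were at 199.7 and 639.8 CPM in Pi16+ cells and at 35.6 and 97.1 CPM in Smoc2+ cells, and *Col15a1* and *Hsd11b1*, known for the Smoc2+ type, at 87.7 and 85.4 against 586 and 339 CPM. Each of these 4 genes kept its order in all 6 libraries, whereas *Lpl*, also known for the Smoc2+ type, was at 151 CPM in Pi16+ and 126.5 CPM in Smoc2+ cells of the control library at 5 dpi and higher in Smoc2+ cells of the other 5. The list of check genes also held *Cd55* for the Pi16+ type and *Cxcl14* for the Smoc2+ type, whose values are not given here.

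The 2 subtypes were compared with limma on log2(CPM + 1) of the 12 pools, with the library as a block and p-values adjusted over 10753 genes. *Bmp5*, *Gdf10*, *Wnt5a*, and *Ccn4* were higher in Smoc2+ cells, and *Wnt2* was higher in Pi16+ cells. These 5 of 8 members passed an adjusted p of 0.05, where 12.7% of genes did, 6.62% higher in Smoc2+ and 6.04% higher in Pi16+ cells. *Bmp4*, *Fst*, and *Sfrp2* did not pass. The repeats here are 6 libraries of different diet and day, so the p-values measure whether a difference held across them.

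*Wnt2* had the largest difference. Pi16+ cells held 54.1, 56.2, and 105.6 CPM in the control and 51.0, 51.4, and 85.6 CPM in the hypothyroid libraries of day 0, 5, and 14. Smoc2+ cells held 1.94, 7.66, and 7.37 CPM in control, and 0 UMIs (which allows up to 5.72 CPM), 12.5, and 25.9 CPM in hypothyroid muscle. The pools did not overlap, and the log2 difference was −3.33 ± 0.43 (SE, n = 6 libraries, limma adjusted p = 0.00065), with Smoc2+ lower in 6 of 6. Without the hypothyroid library of day 0, whose Smoc2+ pool had no *Wnt2* UMI, the difference was −2.85 (limma adjusted p = 0.00038). Without the cells that stand in 2 files it was −3.45 (limma adjusted p = 0.00057), and hypothyroid Smoc2+ cells at 14 dpi held 11.5 CPM.

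*Bmp5* ran the other way. Smoc2+ cells held 219.5, 37.9, and 99.8 CPM in control and 316.5, 68.6, and 72.8 CPM in hypothyroid muscle, against 40.6, 17.2, and 31.7 CPM and 92.7, 32.9, and 47.9 CPM in Pi16+ cells. Smoc2+ cells were higher in 6 of 6 libraries, by 1.42 ± 0.19 on the log2 scale (limma adjusted p = 0.00090). Without the cells that stand in 2 files the difference was 1.36 (limma adjusted p = 0.0037). Hypothyroid muscle at 14 dpi then held 44.2 CPM in Smoc2+ and 36.6 CPM in Pi16+ cells. With the cells holding UMIs of both genes left out of the Pi16+ pools, an alternative added after the data were seen, the *Bmp5* difference was 3.55 (limma adjusted p = 2.6e-05). *Bmp4* was higher in Smoc2+ cells in 5 of 6 libraries, from 74.5 against 25.5 CPM in uninjured control muscle to 6.95 against 7.23 CPM in hypothyroid muscle at 5 dpi, and did not pass (0.62 ± 0.19, limma adjusted p = 0.054). It passed without the cells holding UMIs of both genes (1.78, limma adjusted p = 0.0027) and without the cells that stand in 2 files (0.82, limma adjusted p = 0.040).

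*Gdf10* was at 46.0, 10.6, and 82.4 CPM in Smoc2+ cells of the control libraries and 8.89, 6.12, and 29.1 CPM in Pi16+ cells. In hypothyroid muscle it was at 13.4, 2.57, and 13.8 CPM in Smoc2+ and 5.79, 3.82, and 4.99 CPM in Pi16+ cells, so that the library at 5 dpi was the exception to the higher level in Smoc2+ cells. The difference was 1.06 ± 0.28 (limma adjusted p = 0.031, higher in 5 of 6 libraries). This call rested on most of the libraries: the limma adjusted p was 0.10 without control day 0, 0.050 without hypothyroid day 0, 0.054 without control 5 dpi, 0.11 without control 14 dpi, and 0.072 without hypothyroid 14 dpi. Without the cells that stand in 2 files the difference was 0.86 and did not pass (limma adjusted p = 0.12).

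*Wnt5a* was at 25.9, 35.7, and 47.6 CPM in Smoc2+ and 10.0, 9.18, and 24.4 CPM in Pi16+ cells of the control libraries. The hypothyroid pools held 15.3, 11.9, and 17.5 CPM against 8.11, 8.23, and 10.2 CPM. It was higher in Smoc2+ cells in 6 of 6 libraries, by 1.02 ± 0.19 (limma adjusted p = 0.0047), and passed without each library in turn. It also passed without the cells that stand in 2 files (0.90, limma adjusted p = 0.023). *Ccn4* was also higher in 6 of 6, by 0.55 ± 0.14 (limma adjusted p = 0.022), from 225.7 against 99.4 CPM in control muscle at 5 dpi to 5.83 against 5.02 CPM on day 0. Its limma adjusted p was 0.077 without control 5 dpi, 0.074 without hypothyroid 5 dpi, and 0.051 without control 14 dpi. Without the cells that stand in 2 files the *Ccn4* difference was 0.52 (limma adjusted p = 0.042).

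*Fst* was higher in Pi16+ cells in 4 of 6 libraries, with a difference of −0.41 ± 0.19 (limma adjusted p = 0.18), and passed at −0.75 (limma adjusted p = 0.043) when the cells holding UMIs of both genes were left out. *Sfrp2* was higher in Smoc2+ cells in 2 of 6, both of them the libraries at 5 dpi, where Smoc2+ cells held 282.2 and 173.4 CPM and Pi16+ cells 143.8 and 114.7 CPM. At 14 dpi in control muscle the order was the reverse, 19.4 against 55.4 CPM, and the difference over the libraries was −0.69 ± 0.44 (limma adjusted p = 0.34). Depth moved with the subtype: the median UMIs per cell of Pi16+ against Smoc2+ cells were 7436 and 4221 on day 0 and 6580 and 3362 at 14 dpi in control muscle, but 12606 and 14858 at 5 dpi. With the gate set after each cell was thinned to 1000 UMIs, *Gdf10* (limma adjusted p = 0.26) and *Ccn4* (0.12) were no longer past the threshold, and *Bmp4*, *Fst*, and *Sfrp2* were.

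**Figure D3:**
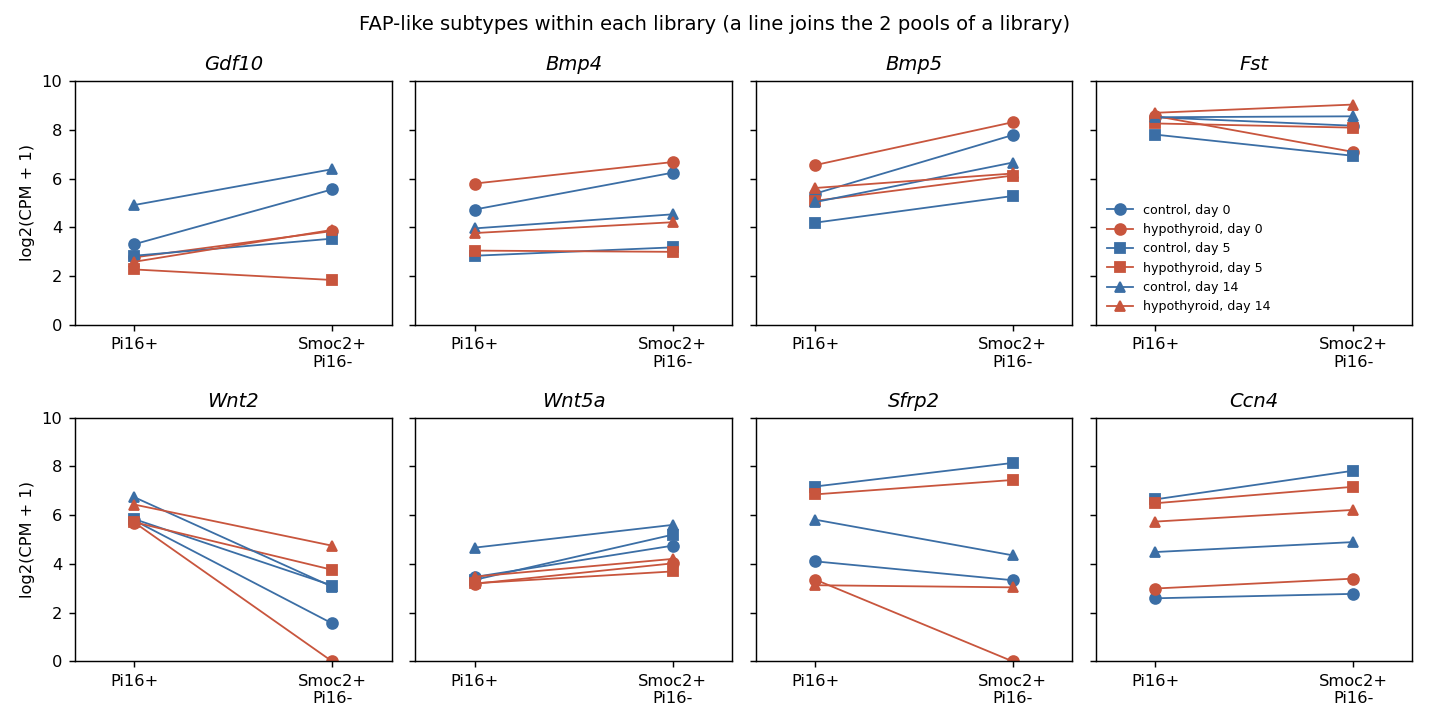
Level of each member, as log2(CPM + 1), in the Pi16+ and Smoc2+ pools of each library, with a line joining the 2 pools of a library (color for diet, marker for day). All 6 *Wnt2* lines fall from Pi16+ to Smoc2+ and all 6 *Bmp5* and *Wnt5a* lines rise, while the *Sfrp2* lines run both ways.

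Within subtypes, the diet ratios show whether a lower or higher level in FAP-like cells as a whole was also found in each type, as the plot of subtypes by library lays out. At 14 dpi *Gdf10* was lower in the hypothyroid library in both, at 0.172 (0.114 to 0.251) in Pi16+ and 0.168 (0.103 to 0.264) in Smoc2+ cells. *Wnt5a* (0.415 and 0.367) and *Sfrp2* (0.140 and 0.372) were lower in both as well, and *Ccn4* (2.44 and 2.55) was higher in both. In Pi16+ cells 4 members were called at 14 dpi, where 6.68% of genes were called, and in Smoc2+ cells 5, where 11.8% were. The fifth was *Wnt2*, higher in hypothyroid Smoc2+ cells at a ratio of 3.51 (1.78 to 7.55, 43 against 11 UMIs). *Bmp5* was not called in either type, with a ratio of 1.51 (1.27 to 1.81) in Pi16+ and 0.730 (0.569 to 0.934) in Smoc2+ cells. Without the cells in 2 files, which left 66 hypothyroid Smoc2+ cells, *Bmp5* was called lower in Smoc2+ cells at 0.443 (0.272 to 0.690), and *Wnt2* (1.56, from 6 and 11 UMIs) and *Sfrp2* (0.593, from 6 and 29 UMIs) were not called there. In Pi16+ cells the same 4 members were called.

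At 5 dpi no member was called in Pi16+ cells, where 12.9% of genes were called, and 3 were called in Smoc2+ cells, where 16.0% were: *Gdf10* at 0.243 and *Wnt5a* at 0.334 lower, and *Fst* at 2.24 (1.99 to 2.52) higher. The same calls were made without the cells in 2 files. On day 0, *Bmp4* at 2.14 (1.44 to 3.15) and *Bmp5* at 2.29 (1.69 to 3.09) were higher in hypothyroid Pi16+ cells, where 6.82% of genes were called. In Smoc2+ cells on that day *Gdf10* at 0.290, from 7 UMIs in the hypothyroid pool, and *Fst* at 0.473 (0.363 to 0.609) were lower, where 6.17% were called. *Gdf10* and *Sfrp2*, both called lower in FAP-like cells as a whole on day 0, were not called in Pi16+ cells, at 0.652 (0.194 to 1.75) and 0.571 (0.232 to 1.23), and *Sfrp2* in Smoc2+ cells stood at 0 against 14 UMIs, too few to be tested. A difference between the subtypes in these ratios was not tested.

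The FAP-like clusters were described by where each member was found. Because the clusters were built from the same cells and genes, these levels are a description with no test, and they pool libraries that gave each cluster different shares of its cells. Clusters 0 and 4, which *Smoc2* helps to mark, held the highest levels of *Gdf10* (81.6 and 35.2 CPM) and, in cluster 0, *Bmp4* (93.7 CPM), *Bmp5* (260 CPM), and *Wnt5a* (71.7 CPM). Cluster 1, marked by *Wnt2* itself and *Sema3c*, held 166 CPM of *Wnt2*. Clusters 6 and 7, marked by *Ltbp2*, *Tnc*, and *Cthrc1*, were made mostly of cells at 5 dpi and held 209 and 134 CPM of *Sfrp2* and 138 and 144 CPM of *Ccn4*. Cluster 16, marked by *Cd248* and *Pi16* and made mostly of cells of day 0 and 14, held 107 CPM of *Sfrp2* and 4.06 CPM of *Ccn4*. *Fst* was found in all 8 clusters, from 77.0 CPM in cluster 6 to 531 CPM in cluster 5. With each library of at least 20 cells weighted equally, *Gdf10* was at 61.9 CPM in cluster 0, 33.4 in cluster 4, and 15.6 in cluster 16, and *Sfrp2* at 58.4 CPM in cluster 16. The *Gdf10* order was that of the control libraries: in hypothyroid cells cluster 0 held 11.3, 0, and 10.4 CPM on day 0, 5, and 14 and cluster 4 12.98, 50.3 (27 cells at 5 dpi), and 10.3 CPM, while clusters 15 and 16 held 25.7 and 24.1 CPM at 14 dpi.

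**Figure D4:**
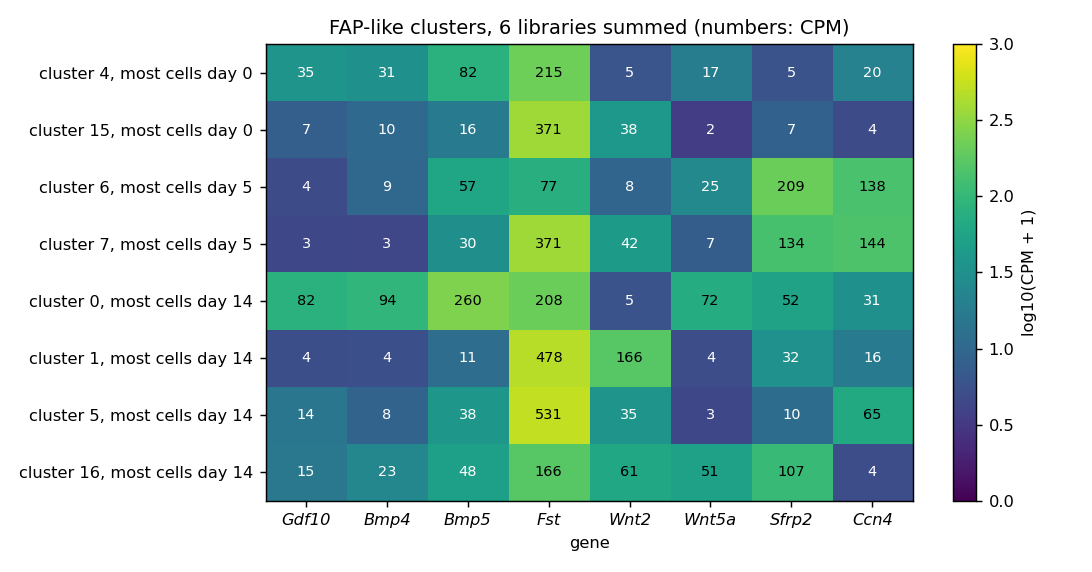
Level of each member (numbers, CPM pooled over the 6 libraries; color, log10(CPM + 1)) in the 8 FAP-like clusters, ordered by the day that gave most cells. *Sfrp2* and *Ccn4* stand highest together in clusters 6 and 7 of day 5, and *Gdf10*, *Bmp4*, and *Bmp5* in cluster 0.

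The clusters in the map of levels by FAP-like cluster also allow the diets to be set side by side among like cells. In cluster 0, *Gdf10* was at 76.1 CPM in the control library and 11.3 CPM in the hypothyroid one on day 0 (ratio 0.149, 0.039 to 0.404) and at 134.5 and 10.4 CPM at 14 dpi (ratio 0.0774, 0.0307 to 0.162). At 14 dpi it was also lower in cluster 4 (0.160) and cluster 5 (0.237). In cluster 1 (0.471, 0.139 to 1.28) and cluster 16 (1.01, 0.247 to 3.09) the interval held 1. At 5 dpi *Gdf10* was lower in cluster 6 (0.171) but not in cluster 7 (1.13, 0.476 to 3.07), and stood at 0 against 16 UMIs in cluster 0. *Sfrp2* at 14 dpi was at 1.49 CPM (1 UMI) in hypothyroid and 70.8 CPM in control cells of cluster 0. Its ratio on that day was 0.281 in cluster 1, 0.290 in cluster 5, 0.188 in cluster 16, and 0.822 (0.176 to 3.23) in cluster 4. At 5 dpi the *Sfrp2* ratio was 1.06 (0.960 to 1.18) in cluster 6 but 0.525 (0.468 to 0.590) in cluster 7. It was also lower at 5 dpi in cluster 0 (0.0554, 3 against 44 UMIs) and cluster 1 (0.12, 3 against 19 UMIs). Without the cells in 2 files, 32 hypothyroid cells of cluster 0 were left at 14 dpi, with 0 UMIs of *Gdf10* and of *Sfrp2*. The *Gdf10* ratio was then 0.231 in cluster 4 and 0.188 in cluster 5 at 14 dpi, and 0.179 in cluster 6 and 0.922 in cluster 7 at 5 dpi. That of *Sfrp2* at 5 dpi was then 1.1 in cluster 6, 0.475 in cluster 7, and 0.0511 in cluster 0.

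*Ccn4* differed by cluster in direction. At 14 dpi its ratio was 3.03 (2.18 to 4.31) in cluster 5, which is marked by *Mmp3* and *Dlk1*, and 1.64 in cluster 0, but 0.759 in cluster 1 and 0.830 in cluster 4, both with intervals that held 1. Cluster 5 made up 317 of 857 hypothyroid and 195 of 1511 control FAP-like cells. *Bmp5* at 5 dpi was higher in hypothyroid cells of cluster 7 (5.17, 3.08 to 9.38) and cluster 6 (1.75). *Wnt5a* at 14 dpi was lower in cluster 5 (0.242, 7 against 12 UMIs) and had a ratio of 0.778 (0.553 to 1.08) in cluster 0, where its level was highest. Its ratios in cluster 1 (0.630), cluster 4 (0.533), and cluster 16 (0.953) had intervals that held 1. Cluster 0 made up 117 of 857 hypothyroid and 436 of 1511 control FAP-like cells. At 5 dpi the *Wnt5a* ratio was 0.627 in cluster 6, 0.527 in cluster 7, and 0.610 in cluster 0 (6 against 8 UMIs), none past 2-fold. Without the cells in 2 files the *Ccn4* ratio was 2.76 in cluster 5, 2.65 in cluster 0, and 0.600 in cluster 1, with 0 hypothyroid UMIs in cluster 4, and the *Bmp5* ratio was 4.89 in cluster 7 and 1.7 in cluster 6.

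Outside the FAP-like cells the members differed in how widely they were found. Apart from 1 UMI of *Gdf10* in 22 erythroid-like cells, *Gdf10* and *Wnt2* were at most 8.61 CPM in any other named class over the 6 libraries summed, and at 0 UMIs in mural-like, glial-like, myocyte-like, and myogenic progenitor-like cells. *Bmp4* was at 34.8 CPM in 1229 endothelial-like cells (26.6 to 56.9 between libraries) and 36.6 CPM in 345 tenocyte-like cells, and *Bmp5* at 121 CPM in tenocyte-like and 104.5 CPM in 164 mural-like cells. *Fst* reached 128 CPM in mural-like cells and 43.7 CPM in endothelial-like cells. T or NK-like cells, which should lack these signals, held from 0.363 CPM for *Gdf10* and *Wnt2* to 6.17 CPM for *Fst*.

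*Sfrp2*, *Wnt5a*, and *Ccn4* were shared with tenocyte-like cells, at 125.5, 48.6, and 208 CPM. The myogenic progenitor-like cells had *Myod1* raised in both of their clusters but *Pax7* only in the larger, of 357 cells. *Ccn4* was also at 151 CPM in these 519 cells, with 72.4, 246.8, and 116.2 CPM in the control and 169.8, 134.6, and 73.3 CPM in the hypothyroid libraries of day 0, 5, and 14. Their ratio at 5 dpi was 0.545 (0.469 to 0.635) and was not called, and on day 0 it was 2.35 (1.13 to 5.15) from 24 and 12 UMIs, where 10.6% of genes were called. In endothelial-like cells at 14 dpi, where 7.04% of genes were called, *Ccn4* was higher in the hypothyroid library at a ratio of 3.57 (2.20 to 5.92), and *Gdf10* was lower at 0.169, from 3 and 37 UMIs. In 1 of the 3 endothelial-like clusters 4 FAP markers were raised as well, and the part of FAP RNA in these values was not tested. In tenocyte-like cells at 14 dpi, where 10.1% were called, *Bmp4* was higher at 2.28 (1.27 to 4.01), and *Wnt5a* at 0.498 and *Fst* at 0.311 were lower. *Ccn4* at 14 dpi lay on the other side of 1 from FAP-like cells in tenocyte-like cells (0.530, 0.384 to 0.717) and myogenic progenitor-like cells (0.631, 0.410 to 0.964), and neither ratio was called. Without the cells in 2 files the endothelial-like ratios were 6.67 for *Ccn4* and 0.168 for *Gdf10* (1 against 37 UMIs). *Fst* (2.53) and *Wnt2* (3.83, 8 against 13 UMIs) were then called higher in these cells too, where 8.09% of genes were called. The myogenic ratio of *Ccn4* at 5 dpi was then 0.5695. Under 20 hypothyroid tenocyte-like and myogenic progenitor-like cells were left at 14 dpi, so their ratios of that day rest on the cells in 2 files.

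**Figure D5:**
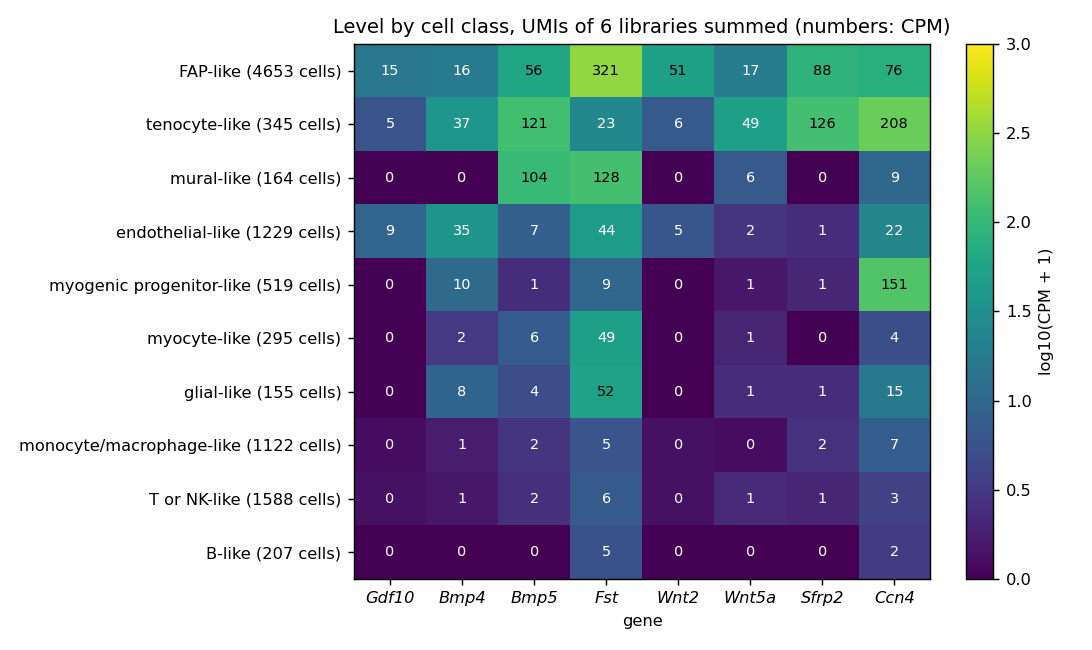
Level of each member (numbers, CPM over the 6 libraries; color, log10(CPM + 1)) by cell class. Dendritic-like, erythroid-like, and unnamed cells are not drawn. Among the classes drawn, *Wnt2* and *Gdf10* stand highest in FAP-like cells, while *Bmp5*, *Sfrp2*, and *Ccn4* are also found in tenocyte-like cells and *Ccn4* in myogenic progenitor-like cells.

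The map of levels by class places the signals. Their receptors, inhibitors, and targets in the same FAP-like cells were read from 9 lists of the 2 pathways with 93 genes, of which 75 are in the files. The lists leave out the 8 members. Between the diets, 5 of 62 list genes tested were called on day 0 (8.06%), 6 of 70 at 5 dpi (8.57%), and 5 of 69 at 14 dpi (7.25%), beside 5.81%, 12.7%, and 7.31% of all genes.

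On day 0, the BMP target *Id1* (15.9 CPM in control, 55.1 in hypothyroid muscle), the BMP inhibitor *Chrdl1* (6.13 and 13.6), and the ligands *Wnt4* (6.59 and 13.6) and *Wnt11* (37.0 and 76.1) were higher in the hypothyroid library, and *Ccnd1*, a cell cycle gene, was lower (26.8 and 11.6). At 5 dpi the 6 called were all lower, among them the receptors *Fzd1* (64.4 and 24.5 CPM) and *Fzd4* (19.1 and 7.73), and the Wnt inhibitors *Sfrp1* (225.7 and 84.8), *Dkk2* (24.5 and 10.98), and *Apcdd1* (4.70 and 1.301). The Wnt inhibitor list had a median log2 ratio of −0.94 on that day, over 6 genes, beside −0.33 for all genes. The medians of the other lists are not given here, so this value is not shown to be particular to the Wnt inhibitors. At 14 dpi *Bmpr1b* (5.89 and 13.2 CPM) and *Chrdl1* (10.4 and 36.3) were higher and *Bmp3* (11.2 and 5.31), *Fzd2* (17.8 and 8.77), and *Apcdd1* (2.83 and 1.24) were lower. The same 6 genes were called at 5 dpi without the cells in 2 files. At 14 dpi without them *Chrdl1* was still called higher and *Fzd2* lower, *Bmpr1b*, *Bmp3*, and *Apcdd1* were not called, and *Bambi*, *Wnt9a*, and *Ccnd1* were called lower.

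The genes of each list with the most UMIs were mostly not called between the diets. *Inhba*, the activin A subunit that follistatin traps, was at 93.4, 1041, and 286 CPM in control and 175, 1342, and 468 CPM in hypothyroid muscle. *Bmp2* was at 238, 55.3, and 74.0 CPM and 276, 81.6, and 76.7 CPM, a course like that of *Bmp4* and *Bmp5*. *Fstl1*, a follistatin-like protein, was at 1443, 3828, and 3053 CPM and 1218, 2407, and 1927 CPM, and *Id3* at 467, 364, and 302 CPM and 774, 394, and 373 CPM. Of the Wnt receptors, *Ryk* was at 79.3, 212, and 64.9 CPM in control and 80.2, 121, and 58.5 CPM in hypothyroid muscle. *Sfrp4* was at 69.8, 44.5, and 129 CPM and 68.0, 27.1, and 98.2 CPM, lower at 5 dpi than on day 0 where *Sfrp2* was higher.

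With injury, 26 of 69 list genes were called from day 0 to 5 dpi in control muscle, 15 higher and 11 lower, and 29 of 70 in hypothyroid muscle, 7 higher and 22 lower. These are 37.7% and 41.4%, beside 32.2% and 34.8% of all genes. Among the list genes, *Inhba* and *Sfrp1* were higher and *Bmp2*, *Bmp7*, *Inhbb*, *Wnt4*, and *Wnt10b* lower under both diets. These are examples and not the full set. The receptor *Bmpr1b* was also higher, from 1.36 to 15.3 CPM in control and from 0.680 to 16.7 CPM in hypothyroid muscle. The BMP target *Id4* was lower, from 23.4 to 10.96 CPM and from 27.9 to 8.87 CPM. *Ptk7* was higher and *Apcdd1* lower under both diets as well. From day 0 to 14 dpi, 10 of 68 were called in control and 22 of 65 in hypothyroid muscle, which are 14.7% and 33.8% beside 11.7% and 24.1% of all genes. The BMP targets called lower in hypothyroid muscle were *Id1* (55.1 CPM on day 0 and 14.3 at 14 dpi), *Id3* (774 and 373), and *Id4* (27.9 and 10.1), while *Id2* was at 63.9 and 78.9 CPM. In control muscle *Id1* was at 15.9 and 13.02 CPM, *Id2* at 53.2 and 91.2, *Id3* at 467 and 302, and *Id4* at 23.4 and 13.9, and the diets were not compared by a test.

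Between the subtypes, 18 of 65 list genes passed the same limma test, 12 higher in Smoc2+ and 6 higher in Pi16+ cells, beside 12.7% of all genes, 6.62% and 6.04% in these directions. The median difference of the lists was 0.23 on the log2 scale, beside 0.032 over all genes tested. Higher in Smoc2+ cells were the BMP receptors and co-receptors *Acvr1* (0.48), *Acvr2a* (0.46), *Eng* (0.76), and *Rgmb* (0.41), the BMP modulator *Bmper* (0.99), and the targets *Id1* (1.26) and *Id3* (0.51). Of Wnt genes, *Fzd2* (0.91), *Ptk7* (1.49), *Ror1* (0.97), *Sfrp1* (1.45), and *Tcf7l2* (0.56) were higher in Smoc2+ cells. Higher in Pi16+ cells were the ligands *Bmp3* (−3.33), *Bmp6* (−1.56), *Wnt10b* (−2.75), and *Wnt9a* (−0.62), and the inhibitors *Fstl1* (−0.65) and *Sfrp4* (−1.64). The ligands among the members that passed (*Bmp5*, *Gdf10*, *Wnt5a*, and *Wnt2*) are not in these counts.

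The genes whose pattern was most like that of each member were ranked by Pearson's r of log2(CPM + 1) over 44 pools of class and library. These pools share libraries and depth, and the values are a description with no p. *Gdf10* and *Wnt2* were each among the other's nearest genes (r = 0.876), and *Duoxa1* (0.841) and *Dnm1* (0.828) followed for *Gdf10*. *Tac1* (0.894) and *Rspo3* (0.868) stood beside *Wnt2*, *Sfrp4* (0.91) and *Dnm1* (0.892) beside *Wnt5a*, and *Slco2a1* and *Bmp6* (both 0.887) beside *Bmp4*. For *Bmp5* they were *Srpx* (0.859), *Pamr1*, and *Shox2*, for *Sfrp2* they were *Pitx1* (0.895), *Tmem119*, and *Clec11a*, for *Ccn4* they were *C1qtnf3* (0.845), *Cdc16*, and *Mest*, and for *Fst* they were *Il1rl2* (0.829), *Adgrd1*, and *Ugdh*.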

How the data were processed

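The deposited values were log2(CPM + 1) per gene and cell. Per the paper's methods and the labels, the authors used Partek Flow: its Cell Ranger aligner placed reads on mm39, UMIs were assigned to GENCODE genes, cells were filtered, and each cell was scaled to CPM. UMIs were recovered by taking each cell's most frequent value above 0 as 1 UMI, and 99.934% of 39334018 values came out whole (tolerance 0.05 UMI). The 9062 later-run columns were not used. All first-run cells were kept, and no doublet caller was run.

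Cells were clustered in Python 3.11.15 (scikit-learn 1.9.0, leidenalg 0.10.2, 20 components, 2000 genes, 15 neighbours, resolution 1.0) and named from fixed markers, with 855 cells left unnamed. UMIs were summed per library and population. CPM have exact Poisson intervals, ratios exact binomial intervals, and shares Clopper-Pearson intervals, all for counting error only. The subtype contrast used limma 3.58.1 in R 4.3.3 on genes with at least 100 UMIs, without *Pi16* and *Smoc2*, with Benjamini-Hochberg adjustment. Recovery, ratios, and limma were tested on simulated data. No test was run between conditions.

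Genes named were the 8 members, list genes called or among the 3 with the most UMIs per list, gate genes, and the 3 genes most like each member. Genes that mark clusters, the gate check genes, and genes called with injury were named after their values were seen. Members and lists were chosen with earlier results of these data known. The values of 1 gene of the pathway lists are not reported here.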

Additional observations from a re-analysis of the deposited data

Results flagged for a closer look

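*Fst* in Smoc2+ cells lay in opposite directions between the diets on different days. Its hypothyroid over control ratio was 0.473 on day 0 and 2.24 at 5 dpi. The difference between the days was not tested, and each day rests on 1 library per diet.

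FAP-like cells were also found in the later runs of columns, whose condition is unknown and which enter no comparison. There were 4017 of them, named by the nearest first-run cluster. All 8 members stood above the 0.0928 CPM that a count of 0 allows: *Gdf10* was at 18.6 CPM, *Bmp4* at 17.6, *Bmp5* at 59.8, *Fst* at 331.5, *Wnt2* at 57.0, *Wnt5a* at 18.5, *Sfrp2* at 41.2, and *Ccn4* at 62.1.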

How the results depend on the processing

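The labels carry no replicate numbers that pair libraries. A fit of diet with the day as a block, which would take the diet difference as equal on each day, was not run, and the subtype test has the library as a block. With all cell columns, the hypothyroid over control ratio of *Sfrp2* on day 0 reversed to 7.62, and 1 member was called at 5 dpi and 2 at 14 dpi. In control muscle the *Gdf10* ratio became 2.36 from day 0 to 5 dpi and 0.711 from 5 to 14 dpi (3 members called), and *Ccn4* 0.962 from day 0 to 14 dpi (1 called). In hypothyroid muscle 1 member was called from day 0 to 5 dpi and *Ccn4* became 0.752 from day 0 to 14 dpi, and the subtype difference of *Sfrp2* became 0.42. With cells of at most 8000 UMIs, 2 members were called between diets at 14 dpi and 2 from 5 to 14 dpi in control muscle, where *Bmp4* became 0.9503, and *Gdf10* became 1.22 from day 0 to 5 dpi. Settings added after the data were seen: without cells in 2 files, 1 member was called between diets at 5 dpi. In Pi16+ cells alone 0 were called at 5 dpi, 1 from 5 to 14 dpi, and 2 from day 0 to 14 dpi in hypothyroid muscle. In Smoc2+ cells alone *Wnt2* became 0.962 from 5 to 14 dpi in control muscle.

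Leaving out cells with markers of other types kept 648 of 4653 FAP-like cells. The diet ratios of day 0 and those with the control library at 14 dpi could not then be had. Of those left, 3 members were called from day 0 to 5 dpi in control muscle, 2 passed the subtype test, and *Sfrp2* became 0.010. Averaging log2 values over cells gave −0.011 for *Bmp4* from 5 to 14 dpi in control and 0.0078 for *Gdf10* from day 0 to 5 dpi in hypothyroid muscle. The causes were not tested.

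Without each library in turn, 3 to 5 members passed the subtype test, with the count at 3 when the control library of 5 dpi or that of 14 dpi was left out. Over its alternatives the limma adjusted p ran from 2.6e-05 to 0.010 for *Wnt2*, 0.0011 to 0.046 for *Wnt5a*, 4.6e-06 to 0.095 for *Bmp5*, 0.0034 to 0.26 for *Gdf10*, 0.0092 to 0.12 for *Ccn4*, 0.0016 to 0.17 for *Bmp4*, 0.0023 to 0.60 for *Fst*, and 0.039 to 0.98 for *Sfrp2*. Genes passing it numbered 712 higher and 650 lower, against 1502 and 1033 with all columns, 97 and 199 without cells holding other markers, 218 and 268 at 8000 UMIs, 353 and 390 without control day 0, and 357 and 404 without control 14 dpi. The *Gdf10* diet ratio ran from 0.251 to 0.652 on day 0 (called in 5 of 7 alternatives), 0.129 to 0.624 at 5 dpi (7 of 8), and 0.168 to 0.324 at 14 dpi (7 of 7). That of *Wnt5a* ran from 0.334 to 0.897 at 5 dpi (2 of 8) and 0.351 to 0.689 at 14 dpi (5 of 7), that of *Ccn4* from 1.18 to 2.55 at 14 dpi (5 of 7), and that of *Sfrp2* from 0.059 to 7.62 on day 0 (5 of 6) and 0.140 to 0.436 at 14 dpi (7 of 7). Small counts limit *Gdf10* and *Sfrp2* on day 0.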
